A study of Mus musculus with 24 samples.

Results

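Ly6C low monocytes are the mature, patrolling monocytes of blood and spleen. The libraries described here come from such cells of mice lacking Slc29a3 and of mice lacking both Slc29a3 and Tlr7. They were chosen by their sample labels as Ly6C low with either genotype, which gave 8 of the 24 libraries of the series, 4 of each genotype. Both groups carry the Slc29a3 mutation, so that the comparison concerns the presence or absence of Tlr7 on that background, and no WT library entered it. All cells came from the spleens of mice that had received no treatment. By the labels they were CD11b+, Fcgr4+, Ly6G-, SiglecF- and NK1.1- cells sorted as Ly6C low. In the study, beads had first removed lymphocytes, neutrophils, and erythroid cells. The Slc29a3-/- allele carries an insertion with a stop codon in exon 2 and the Tlr7-/- allele a 4-bp deletion in exon 5. The sources used here give neither the age and sex of the mice nor whether libraries with the same number were prepared together. The labels name the cells macrophages and the study names them monocytes.

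Slc29a3 encodes a transporter that lets nucleosides out of the lysosome, where the nucleic acids of engulfed cells are broken down. TLR7 lies in the same compartment and senses guanosine together with short RNA. TLR7 signals through Unc93b1-dependent trafficking and the adaptor Myd88 to NF-kB and interferon regulatory factors. Ly6C low monocytes depend on the transcription factor Nr4a1, carry Fcgr4 and integrins such as Itgal, and arise from Ly6C hi monocytes. The question put to these libraries is which transcripts of Slc29a3-/- Ly6C low monocytes depend on Tlr7.

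RNA was measured with a panel that amplifies 1 short stretch per gene, and the deposited value is the RPM, the read count of that amplicon scaled to the library total. Levels are therefore compared between libraries and not between genes. The 8 libraries held 12382478 to 12678345 reads, and 3 reads, the limit that a value of 0 allows, correspond to 0.237 to 0.242 RPM. These limits allow for counting error alone, since amplified reads were not collapsed to molecules. The 4 Slc29a3-/- libraries resembled each other, with Pearson correlations over the genes tested of 0.984 to 0.991. Replicates 1 and 2 of the Slc29a3-/- Tlr7-/- group correlated with them at 0.965 to 0.976. Replicates 3 and 4 of the double mutant stood apart: replicate 3 correlated with the libraries other than replicate 4 at 0.946 to 0.957, and replicate 4 with any library at 0.902 to 0.959. In replicate 4, 450 genes lay over 4-fold under the mean of replicates 1 and 2 and 34 over 4-fold above it. For replicate 3 the counts were 88 and 8, and 70 genes were low in both. Results below are given with and without these libraries where it matters. Both groups also mixed the sexes by their sex-linked transcripts: Slc29a3-/- replicate 1 and double mutant replicates 1 and 3 had Y-linked transcripts with Xist at most 0.485 RPM, double mutant replicate 2 had both, and the others had Xist only. The 2 genotypes were sequenced under barcodes 30 to 33 and 43 to 46, so that barcode and genotype cannot be told apart.

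The markers of Ly6C low monocytes were present in every library. Fcgr4, which was part of the sorting gate, ranged from 1306 to 3017 RPM, against 36.8 to 62.5 RPM in the Ly6C hi libraries of the same genotypes. Itgal, an integrin chain, ranged from 4156 to 7528 RPM and Ace, a peptidase, from 1099.8 to 1772 RPM. Ccr2, a receptor of Ly6C hi monocytes, reached at most 107 RPM, in double mutant replicate 1. Spn, another marker of the subset, measured 201, 202, 94.6, and 35.3 RPM in double mutant replicates 1 to 4 and so fell in the libraries that stood apart.

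Neither targeted gene checks the labels, because the amplicons also read mutant transcripts. Slc29a3 (chromosome 10, 60712072 to 60752794) measured 49.9, 61.4, 57.4, and 64.3 RPM in the Slc29a3-/- libraries and 47.002, 52.8, 47.6, and 74.1 RPM in the Slc29a3-/- Tlr7-/- libraries, which overlap (log2 fold change 0.09 ± 0.17 SE, adjusted P = 0.789). Tlr7 (chromosome X, 167304929 to 167330558) measured 411, 391, 403, and 400.2 RPM with the intact gene and 627, 542, 584, and 355 RPM with the mutant one (-0.36 ± 0.17, adjusted P = 0.306). The mutant Tlr7 transcript was thus still read in all 4 double mutant libraries.

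Differences between the genotypes concerned a small set of genes. A minimum of 1 RPM in 4 or more of the 8 libraries left 9962 genes to test. Of these, 76 were higher in Slc29a3-/- than in Slc29a3-/- Tlr7-/- cells, or 0.763% of those tested, and 63 were lower, or 0.632%. A call required a more than 1.5-fold difference with a Benjamini-Hochberg adjusted P under 0.05 in limma, fitted to log2(RPM + 1). On that scale the change of a low gene is understated. In all 139 called genes the 2 groups of 4 libraries did not overlap, which selection by P on the same values favors. Among all genes tested 7.87% lay higher and 4.09% lower in Slc29a3-/- cells without overlap. Most changes were large, with 67 of the increases and 61 of the decreases over 2-fold. The median log2 fold change of all genes tested was 0.08. At an unadjusted P under 0.05 with the same fold change, 818 genes (8.21%) were higher and 270 (2.71%) lower. Of those 818, 308 passed again when replicates 3 and 4 of the double mutant were left out, and 101 were among the 450 genes that were low in replicate 4. Of the 76 adjusted calls 1 was among those 450. The counts also hung on single libraries. Leaving out replicate 1, 2, 3, or 4 of Slc29a3-/- lowered them to 39, 14, 16, and 13 higher and 30, 19, 28, and 20 lower genes. Without replicate 3 of the double mutant they were 38 and 21, and without replicate 4 they were 118 and 57. Of 91 genes followed through all alternatives 54 were called, and of these 21 kept their call wherever they were tested, under 11 other settings and without each of the 8 libraries in turn. Among these 21 were Slc4a1, Trim10, Cd72, Cd200r3, Fcrl5, Siglece, Fpr1, F11r, H2-Eb2, H2-Ob, Apol8, Cd4, Cd22, and Serpinb10. Trim10 and Mmp9, both among the 21, were tested in only 4 of the 8 omissions. They passed the filter through 1 genotype alone and dropped out of the test without any library of that genotype. For such genes the filter itself favors a difference, so that their P-values add no separate support. P-values here set each difference against the spread between these libraries, which limma moderates over all genes. Nothing in the labels says how the mice were paired or housed.

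**Figure D1:**
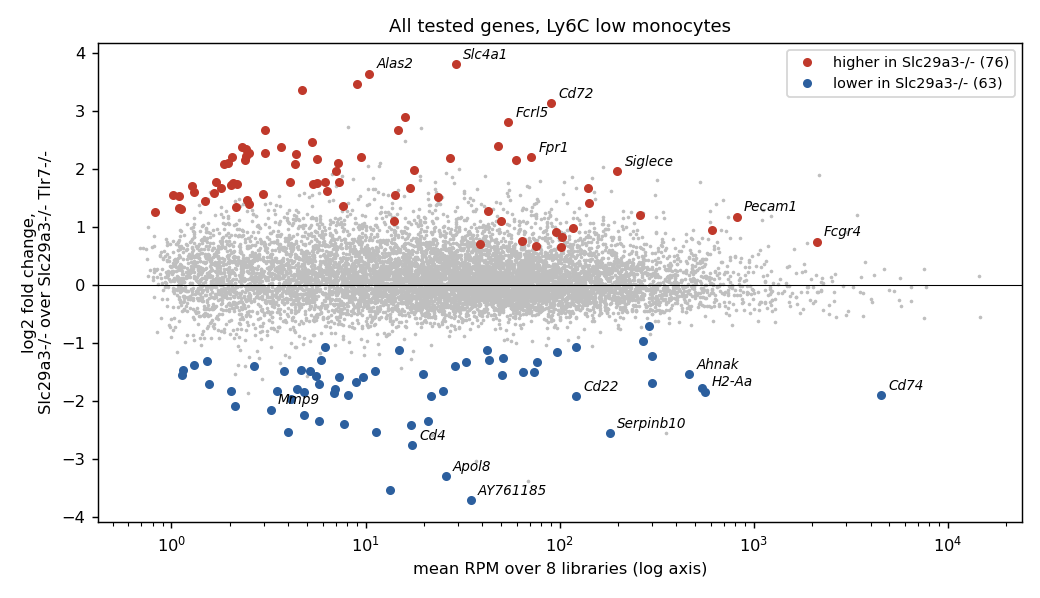
Each point is 1 of 9962 genes tested, with its mean over the 8 libraries in RPM on a log axis and its log2 fold change, Slc29a3-/- over Slc29a3-/- Tlr7-/-. The 76 genes called higher (red) include Slc4a1 and Cd72, and among the 63 called lower (blue) Cd74 has the highest mean level.

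Outside red-cell genes, the largest increases among genes with a mean of at least 10 RPM included surface receptors that carry or pair with signaling motifs. Cd72 (chromosome 4, 43446462 to 43454628), an inhibitory receptor best known from B cells, measured 101, 193, 147, and 209.8 RPM in Slc29a3-/- and 23.99, 16.3, 16.8, and 12.6 RPM in double mutant libraries. The groups lay far apart, and the increase was 3.13 ± 0.26 on the log2 scale (adjusted P = 0.00108). Cd200r1 (chromosome 16, 44765736 to 44794978), the inhibitory receptor for CD200, measured 13.6, 26.1, 25.2, and 50.7 RPM against 2.75, 2.06, 5.76, and 1.28 RPM (2.89 ± 0.42, adjusted P = 0.0112). Its neighbors on chromosome 16, Cd200r3 and Cd200r4, which encode activating relatives, rose as well. Cd200r3 measured 4.45, 7.36, 8.04, and 7.47 RPM against 0.242, 0.794, 1.10, and 0 RPM (log2 fold change 2.39, adjusted P = 0.0052), and Cd200r4 4.13, 6.80, 7.81, and 11.8 RPM against 1.53, 0.238, 0.868, and 1.36 RPM (2.09, adjusted P = 0.0153). These 3 genes are similar in sequence, and how reads shared between them were assigned is not stated. The call of Cd200r1 was lost without Slc29a3-/- replicate 2 (adjusted P = 0.0649), and that of Cd200r4 without Slc29a3-/- replicate 2, 3, or 4 or double mutant replicate 3 (up to 0.0795 over all alternatives). Cd200r3, Cd200r4 and Siglece were named after their values were seen. Siglece (chromosome 7, 43651070 to 43660161), an inhibitory receptor for sialic acids, measured 259, 302, 343, and 359 RPM against 72.1, 71.4, 108, and 72.5 RPM, without overlap (1.96 ± 0.17, adjusted P = 0.00109).

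Fc receptors and receptors of chemoattractants followed. Fcrl5 (chromosome 3, 87435773 to 87500678), an Fc receptor-like protein, measured 67.7, 111, 81.2, and 122 RPM against 7.67, 12.8, 15.5, and 15.3 RPM (2.81 ± 0.26, adjusted P = 0.00144). Fcgr4 itself (chromosome 1, 171018920 to 171029761), the activating receptor for IgG by which the cells were gated, measured 2323, 2851, 2406, and 3017 RPM against 1306, 1683, 1582, and 1750.1 RPM (0.75 ± 0.14, adjusted P = 0.035). Each Slc29a3-/- library exceeded each double mutant library, but a gate on FcγRIV can itself set this level, and its part was not tested. The call was lost without any one library other than double mutant replicate 4, with an adjusted P of up to 0.178 over all alternatives. Of the 9 Fc receptor genes tested, 2, Fcrl5 and Fcgr4, rose and none fell, beside 0.763% and 0.632% of all genes. The inhibitory receptor Fcgr2b (57.2, 106, 72.96, and 105 against 58.3, 61.5, 42.5, and 21.7 RPM, adjusted P = 0.229) and the shared signaling chain Fcer1g (4421, 4907, 4938, and 4895 against 4669, 3941, 6018, and 5862 RPM, adjusted P = 0.802) did not pass the test. Of 24 chemokine and trafficking receptor genes tested 2, Fpr1 and C3ar1, were higher and 2, Ccr3 and P2ry6, were lower. Fpr1 (chromosome 17, 17876471 to 17883940), the receptor for formylated peptides of bacteria and mitochondria, measured 117, 112, 99.1, and 142 RPM against 18.6, 22.9, 31.6, and 26.6 RPM (2.21 ± 0.19, adjusted P = 0.00108). C3ar1, the receptor of the complement fragment C3a, rose from 1.13, 0.794, 1.18, and 0.799 RPM to 3.66, 4, 4.97, and 7.23 RPM (1.56 ± 0.24, adjusted P = 0.0136), a call lost without Slc29a3-/- replicate 2, 3, or 4 (up to 0.0777).

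Adhesion molecules and growth factor receptors gave calls in both directions. Of 28 growth factor receptor genes tested 1, Lifr, was higher and 3, Kit, Flt3, and Il1r2, were lower. Among all genes tested 0.763% were higher and 0.632% lower. Without replicates 3 and 4 of the double mutant 2 growth factor receptor genes were called higher and 1 lower. Pecam1 (chromosome 11, 106654217 to 106750628), an adhesion receptor with inhibitory motifs, measured 827, 1309, 1075, and 1338 RPM against 438, 631, 463, and 465 RPM (1.18 ± 0.18, adjusted P = 0.0136). In the list of stroma and endothelium Pecam1 was the 1 call among 3 genes tested, and the summed level, of which it makes up most, was 861 to 1373 RPM in Slc29a3-/- and 504 to 673 RPM in double mutant libraries. The part of such cells was not tested. F11r, a junctional adhesion molecule, measured 60.1, 119, 87.2, and 127 RPM against 15.99, 18.98, 21.3, and 26.9 RPM (2.15 ± 0.25, adjusted P = 0.0036). The other integrin and adhesion genes did not pass: Pecam1 was the 1 call among 27 tested, and Itgb3 with 257, 258, 226, and 195 against 100.1, 89.8, 119, and 183 RPM had an adjusted P of 0.0682. Lifr, the receptor of leukemia inhibitory factor, measured 180.3, 167, 258, and 214 RPM against 84.2, 95.9, 73.6, and 54.5 RPM (1.41 ± 0.200, adjusted P = 0.0102). Without Slc29a3-/- replicate 4 the calls of Lifr and Pecam1 were lost, and that of Pecam1 also without Slc29a3-/- replicate 2 or 3 or double mutant replicate 3 (adjusted P up to 0.0591 and 0.0795). Csf1r, the receptor on which monocytes depend for survival, did not differ beyond its spread, with 2073, 2248, 2048, and 2045 RPM and 2084, 2068, 2892, and 4011 RPM (adjusted P = 0.377). Its 2 highest values were those of double mutant replicates 3 and 4.

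Several genes of tissue macrophages were also higher. Cd5l (chromosome 3, 87357881 to 87371073), a secreted protein made by macrophages under the control of the sterol-sensing receptor LXR, measured 34.3, 84.6, 88.3, and 114 RPM against 8.32, 6.04, 28.8, and 19.2 RPM (2.41 ± 0.49, adjusted P = 0.0449). Nr1h3, which encodes LXRα, measured 35.9, 74.1, 56.1, and 79.1 RPM against 19.2, 29.4, 20.9, and 26.05 RPM (1.28 ± 0.25, adjusted P = 0.04). Acp5, a lysosomal phosphatase, measured 260.4, 322, 398, and 477 RPM against 135, 144, 159, and 182 RPM (1.201 ± 0.19, adjusted P = 0.0148). Spic, the transcription factor of red pulp macrophages, had values without overlap, 22.02, 33.9, 38.7, and 41.7 RPM and 8.16, 8.97, 14.5, and 19.3 RPM, but did not pass (adjusted P = 0.0551). C1qb, a chain of complement C1q, measured 78.6, 158, 139, and 241 RPM and 28.4, 30.4, 80.7, and 71.8 RPM (adjusted P = 0.125), and C3 measured 670.5, 715, 896, and 872 RPM and 375, 413, 185, and 92.1 RPM (adjusted P = 0.0834). Of 13 tested markers of red pulp macrophages only Cd5l was called, beside 0.763% higher among all genes. The summed level of the list was 2738 to 3256 RPM in Slc29a3-/- and 2383 to 2872 RPM in double mutant libraries. Without replicates 3 and 4 of the double mutant 5 of these markers were called higher. Of the defining markers Vcam1 measured 28.7, 80.2, 72.4, and 147 RPM and 25.7, 31.5, 47.4, and 20.4 RPM, and Cd163 at most 10.1 RPM. Macrophages in the gate and expression in the monocytes cannot be told apart in bulk RNA, nor can fewer cells of a type be told from less RNA per cell. The part of such cells in these results was not tested. Leaving out Slc29a3-/- replicate 2, 3, or 4 ended the calls of Cd5l, Nr1h3, and Acp5, as did leaving out double mutant replicate 1 or 2 for Cd5l, 1 or 3 for Nr1h3, and 3 for Acp5 (adjusted P over all alternatives up to 0.206, 0.197, and 0.0793). The call of Nr1h3 was also lost in 7 of 11 other settings, among them the fit without double mutant replicates 3 and 4. That of Cd5l was lost in 7 of 11 as well, among them TMM and RLE scaling of the libraries.

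Cp and Hebp1, which act on iron and heme, rose as well. Cp, the ferroxidase ceruloplasmin, measured 22.2, 16.6, 30.7, and 31.6 RPM against 8.40, 6.59, 1.18, and 0.639 RPM (2.67 ± 0.54, adjusted P = 0.0441). This difference drew on the libraries that stood apart, and without them the log2 fold change was 1.59. Leaving out any Slc29a3-/- library or double mutant replicate 3 ended its call (adjusted P over all alternatives up to 0.200). Hebp1, a heme-binding protein, measured 20.7, 59.8, 44.3, and 55.9 RPM against 6.38, 6.35, 16.6, and 7.03 RPM (2.198 ± 0.38, adjusted P = 0.0213), a call lost without Slc29a3-/- replicate 2, 3, or 4 or double mutant replicate 2 (up to 0.111). Among 24 tested genes of heme and iron recycling Cp was the 1 call, beside 0.763% higher among all genes. Hmox1, which degrades heme, ranged from 189.6 to 1431 RPM within the double mutant alone.

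**Figure D2:**
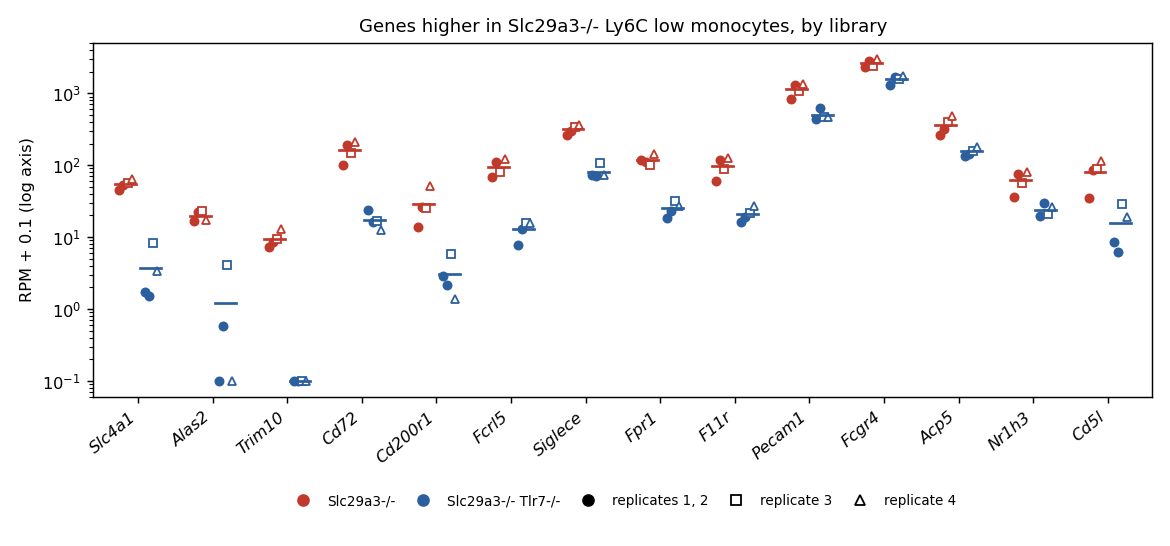
RPM plus 0.1 on a log axis of 14 genes called higher in Slc29a3-/- Ly6C low monocytes, with 1 point per library (red Slc29a3-/-, blue Slc29a3-/- Tlr7-/-), open squares and triangles for replicates 3 and 4, and bars at the group mean. The 2 groups do not overlap for any of the genes, and Alas2 is at 0 in 2 double mutant libraries and Trim10 in all 4.

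The genes with the highest fold changes of all belong to red blood cells and their precursors. Slc4a1 (chromosome 11, 102348824 to 102366203), the anion exchanger of the red-cell membrane, measured 45.7, 53.6, 55.9, and 63.9 RPM in Slc29a3-/- and 1.61, 1.43, 8.13, and 3.28 RPM in double mutant libraries (3.803 ± 0.38, adjusted P = 0.00166). Alas2, which starts heme synthesis in erythroid cells, measured 16.8, 22.3, 22.95, and 17.001 RPM against 0, 0.477, 3.95, and 0 RPM (3.64 ± 0.47, adjusted P = 0.00556). Trim10, which is known from terminal erythroid differentiation, measured 7.24, 8.48, 9.31, and 12.7 RPM and was at 0 in all 4 double mutant libraries, so that it was at least 38.9-fold higher against a floor of 3 reads per library (adjusted P = 0.000364). Of 7 erythroid markers tested 3 were called higher, beside 0.763% of all genes, and none lower, and the summed level of all 11 that were read was 149 to 196 RPM in Slc29a3-/- and 18.6 to 85.8 RPM in double mutant libraries. Not all of them followed: Gata1 (1.51, 3.52, 2.84, and 2.30 against 0, 2.94, 1.34, and 5.19 RPM) and Car1 (21.3, 30.2, 35.2, and 22.01 against 11.3, 49.95, 19.8, and 38.4 RPM) overlapped, and Klf1 was under 1 RPM throughout. Hemoglobin genes were not analyzed here. Further calls known from red cells, named after their values were seen, were the membrane skeleton genes Sptb (1.76), Dmtn (2.38) and Add2 (1.58) and the Rh antigen Rhd (1.76, all log2 fold changes). Beads had been used to deplete erythroid cells before the sort, and the part of red-cell RNA was not tested.

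Most cytokine transcripts were scarce. Of 9 tested genes of the proinflammatory cytokine list 1 was called, beside 0.763% higher among all genes. This was Il10, which encodes an anti-inflammatory cytokine. It measured 5.17, 9.52, 7.89, and 7.79 RPM in Slc29a3-/- and 0, 0.874, 0.0790, and 3.67 RPM in double mutant libraries (2.27 ± 0.46, adjusted P = 0.0432). Leaving out any one library other than double mutant replicate 4 ended this call, with an adjusted P of up to 0.197 over all alternatives. Il1b was well expressed, with 699, 746, 716, and 683 RPM and 437, 398, 208, and 769.8 RPM, and overlapped (adjusted P = 0.263). Tnf measured 1.03, 0.720, 2.05, and 1.03 RPM and 1.29, 0.238, 0.158, and 0 RPM (adjusted P = 0.303). Il6 reached at most 1.18 RPM, Ifnb1 at most 0.888 RPM and Ifng at most 0.808 RPM, all too low to be tested. Il17a had no read in any of the 8 libraries, which allows up to 0.237 to 0.242 RPM, and Il23a had at most 1 read in a library.

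Genes of antigen presentation on MHC class II were lower in Slc29a3-/- than in double mutant cells. In this pathway the α and β chains encoded by the H2-A and H2-E genes assemble on the invariant chain Cd74. The peptide editors H2-DM and H2-DO then load the groove, and the transactivator Ciita drives the whole set. Of the 18 genes tested in the list of class II presentation and costimulation, 9 fell and none rose, beside 0.632% lower among all genes tested, and their median log2 fold change was -1.11 against 0.08 over all genes. The list was written with earlier results of these data known. Cd74 (chromosome 18, 60803848 to 60812652) measured 1823, 1318, 2032, and 2237 RPM in Slc29a3-/- and 4272, 6637, 6483, and 11548 RPM in double mutant libraries (-1.900 ± 0.28, adjusted P = 0.0126). The lowest double mutant value lay well above the highest Slc29a3-/- value. H2-Aa measured 189, 186, 267, and 277 RPM against 437, 739, 925, and 1448 RPM (-1.84 ± 0.32, adjusted P = 0.0212). H2-Ab1 (chromosome 17, 34257689 to 34269419) measured 104, 106, 186, and 173 RPM against 300.3, 434, 476, and 614 RPM (-1.68 ± 0.26, adjusted P = 0.0136). The call of Cd74 was lost without replicate 2 of Slc29a3-/- (adjusted P = 0.0657), that of H2-Aa without any Slc29a3-/- library or double mutant replicate 3 (up to 0.111 over all alternatives), and that of H2-Ab1 without Slc29a3-/- replicate 2 or double mutant replicate 3 (up to 0.0748). Replicate 4 of the double mutant had the highest value of all 8 libraries for each of these 3 genes.

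The remaining chains and the editors moved by similar amounts. H2-Eb1 measured 164, 202, 347, and 262 RPM against 475, 830.4, 849.9, and 1222 RPM (-1.77, adjusted P = 0.0201), and its low relative H2-Eb2 6.04, 7.84, 6.62, and 4.21 RPM against 27.9, 25.97, 41.99, and 47.9 RPM (-2.34, adjusted P = 0.00206). The editors H2-DMb2 (log2 fold change -1.33, adjusted P = 0.0187), H2-Oa (-1.92, adjusted P = 0.0136) and H2-Ob (-1.39, adjusted P = 0.0052) fell. H2-DMa (-0.66, adjusted P = 0.222) and H2-DMb1 (-0.97, adjusted P = 0.109) did not pass. H2-DMb1 and H2-DMb2 are near copies of each other, so that reads may have been split between them. Ciita (chromosome 16, 10480059 to 10528418) measured 23.1, 27.1, 37.5, and 31.1 RPM against 69.3, 89.3, 61.6, and 67.04 RPM (-1.25 ± 0.18, adjusted P = 0.012). Single libraries whose omission ended calls were Slc29a3-/- replicate 2 (H2-Eb1, H2-DMb2, H2-Oa, Ciita), replicate 4 (the same genes), replicate 1 (H2-Eb1, H2-DMb2), and double mutant replicate 3 (H2-Eb1, H2-DMb2, H2-Oa), with adjusted P of up to 0.105, 0.101, 0.0694, and 0.083 for these 4 genes over all alternatives. Enzymes that process antigen overlapped between the groups: the protease Ctss measured 1975, 2038, 1807, and 2123 RPM and 1883, 2093, 2122, and 2064 RPM (adjusted P = 0.856), and the reductase Ifi30 429.8, 606, 489.9, and 464 RPM and 460.0, 461, 445, and 513 RPM (adjusted P = 0.771). The costimulatory genes Cd40, Cd80, Cd86, Icosl and Cd274 did not pass the test either. Without replicates 3 and 4 of the double mutant 11 genes of the list were called lower, with a median of -1.13.

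**Figure D3:**
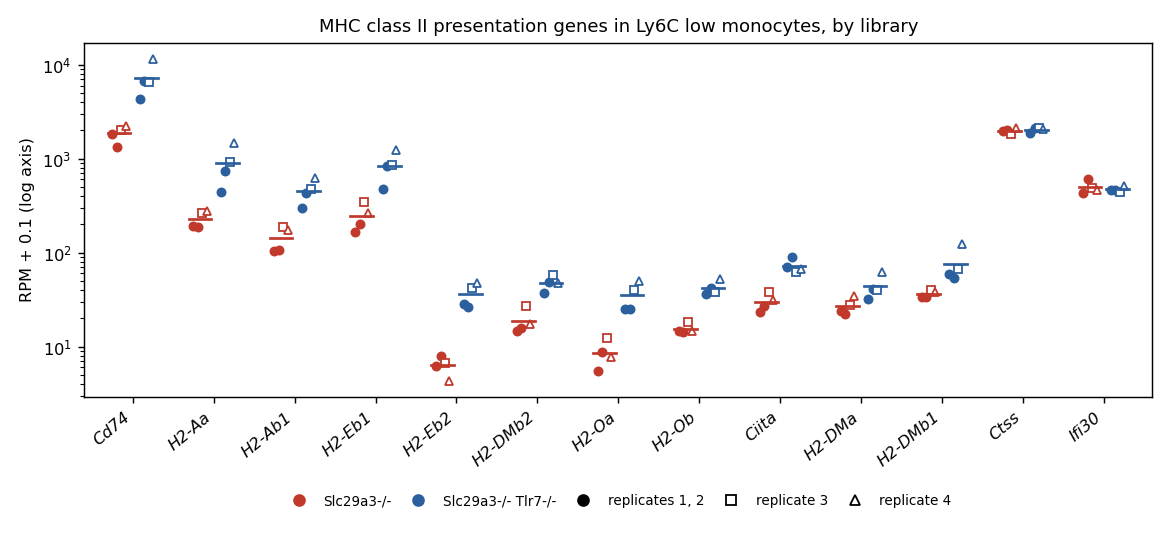
RPM plus 0.1 on a log axis of 13 genes of class II presentation in the 8 libraries, drawn as in the plot of genes called higher. The 9 genes from Cd74 to Ciita are lower in Slc29a3-/- libraries without overlap, H2-DMa and H2-DMb1 are lower without being called, and Ctss and Ifi30 overlap.

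Class II promoters are known for a shared arrangement of an X box and a Y box, through which Ciita acts. The stretches upstream of the start sites were read from RefSeq promoters (GRCm38.p6) to show what the genes that fell together have in common. An entry could be searched for 8 of the 11 genes of the class II pathway. The Y box TGATTGG stood in 7 of them, and an X box-like stretch (AAC, any 2 bases, ATG, any base, and TG) in 5, with 15 to 18 bases between the boxes. Both strands were searched, over 250 bases upstream of the start. Among all 32851 promoters searched alike, 7.23% hold the first motif, 0.466% the second and 0.0578% both. The sequences of chromosome 17 follow, on the strand of the gene, with the motifs in capitals:
H2-Aa (chr17:34287859-34287916, minus strand): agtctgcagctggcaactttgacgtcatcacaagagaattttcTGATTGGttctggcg
H2-Eb1 (chr17:34305770-34305820, plus strand): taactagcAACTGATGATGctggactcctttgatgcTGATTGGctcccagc
H2-Eb2 (chr17:34325537-34325587, plus strand): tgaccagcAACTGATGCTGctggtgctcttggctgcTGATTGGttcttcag
H2-DMb1 (chr17:34153091-34153142, plus strand): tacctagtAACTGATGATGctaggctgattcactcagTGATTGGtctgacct
H2-DMb2 (chr17:34145120-34145171, plus strand): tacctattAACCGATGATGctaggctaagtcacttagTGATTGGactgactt
H2-Oa (chr17:34092291-34092348, plus strand): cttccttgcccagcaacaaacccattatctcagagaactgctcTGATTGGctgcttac
H2-Ob (chr17:34238812-34238860, plus strand): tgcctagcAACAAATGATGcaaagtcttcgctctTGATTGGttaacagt
In H2-Aa and H2-Oa the Y box matched and the X box-like pattern did not. A missing match to this strict pattern does not show that an X box is absent. Neither motif was found at the 2 start sites of H2-DMa, which was not called. H2-DMb1 holds both and was not called either. A match describes letters in the window and no binding.

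Markers of conventional dendritic cells, which carry much class II, were lower in part. Of 17 such markers tested 6 were called lower, beside 0.632% of all genes, and none higher. Of the 17, 7 had a log2 fold change above 0, and in 3 every Slc29a3-/- library exceeded every double mutant library, whereas 8 lay below without overlap. Among all genes tested 7.87% lay above and 4.09% below without overlap. At the unadjusted threshold 3 of the markers were higher and 9 lower, beside 8.21% and 2.71% of all genes. Flt3, their growth factor receptor, measured 1.11, 1.20, 4.10, and 2.15 RPM in Slc29a3-/- and 6.38, 6.27, 7.73, and 8.39 RPM in double mutant libraries (-1.47, adjusted P = 0.0449). Zbtb46, their transcription factor, measured 1.59, 3.36, 2.29, and 2.07 RPM against 7.35, 6.43, 11.2, and 10.4 RPM (-1.56, adjusted P = 0.0163). Clec9a (-1.49), Cd209a (-1.58), Ffar2 (-1.79) and Cd4 were the others, while Xcr1 (3.74, 4.88, 6.86, and 6.67 against 6.62, 7.70, 8.84, and 16.1 RPM, adjusted P = 0.277) and Batf3 (2.46, 3.76, 2.76, and 3.97 against 2.58, 3.42, 1.97, and 2.08 RPM) did not pass. These defining markers were low in both groups. The summed level of the list was 2074 to 2313 RPM in Slc29a3-/- and 980 to 2167 RPM in double mutant libraries, a sum set mainly by Sirpa, which measured 1412, 1259, 383, and 169.5 RPM in double mutant replicates 1 to 4. Without replicates 3 and 4 of the double mutant 3 of the markers were called lower, Flt3, Clec9a, and Cd209a no longer being so (adjusted P up to 0.197, 0.154, and 0.127 over all alternatives), and 1, the adhesion molecule Cadm1, was called higher (1.55, adjusted P = 0.0483). With all libraries Cadm1 measured 28.2, 53.8, 43.1, and 74.6 RPM against 10.8, 21.7, 26.2, and 12.7 RPM (1.43, adjusted P = 0.0911). Leaving out double mutant replicate 3 alone ended the calls of Flt3, Clec9a, Cd209a, and Zbtb46, as did each of Slc29a3-/- replicates 1 and 4 (up to 0.0897 for Zbtb46). Replicate 2 of Slc29a3-/- ended those other than Zbtb46, and replicate 3 of Slc29a3-/- those other than Flt3. Double mutant replicate 2 ended the calls of Flt3 and Clec9a, and double mutant replicates 1 and 4 each that of Flt3. The part of dendritic cells in the class II result was not tested.

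Cd4 and Cd22 are lymphocyte markers that fell. Of 5 T-cell markers tested Cd4 was the 1 called lower, 3 were lower at the unadjusted threshold, and 2 lay below without overlap. Among all genes tested the shares were 0.632%, 2.71% and 4.09% in that order. The median log2 fold change of the T-cell markers was -0.62. Of the B-cell list 2 genes could be tested, of which Cd22 was called lower and Cd79b (0.88, adjusted P = 0.129) did not pass. Cd4 (chromosome 6, 124864692 to 124888221) measured 2.46, 3.68, 5.29, and 3.34 RPM against 39.4, 32.9, 33.7, and 18.7 RPM (-2.76 ± 0.27, adjusted P = 0.00166). The T-cell receptor chain Cd3e was at most 1.75 RPM in any library. Cd22 (chromosome 7, 30865402 to 30880342), an inhibitory lectin of B cells, measured 50.2, 80.3, 41.4, and 37.2 RPM against 175, 190.1, 218, and 185 RPM (-1.92 ± 0.22, adjusted P = 0.00336). The summed B-cell list, of which Cd22 makes up most, was 82.7 to 132 RPM in Slc29a3-/- and 202 to 252 RPM in double mutant libraries. The summed T-cell list was 17.2 to 30.7 RPM and 33.1 to 59.4 RPM. The neutrophil list was 28.0 to 213 RPM against 10.01 to 58.9 RPM, and gave 1 call in each direction. Lists of NK cells, plasma cells, plasmacytoid dendritic cells, basophils and mast cells, and megakaryocytes gave no call among 9, 6, 7, 6, and 3 genes tested, and the eosinophil list gave 1 lower, the chemokine receptor Ccr3, among 3.

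The 3 largest decreases lay in less known genes. AY761185, a defensin-related gene on chromosome 8, measured 4.29, 3.76, 2.05, and 3.02 RPM in Slc29a3-/- and 49.02, 17.2, 88.3, and 111 RPM in double mutant libraries (-3.71 ± 0.49, adjusted P = 0.0068). LOC105247310 measured 1.19, 1.36, 0.315, and 1.11 RPM against 16.4, 8.82, 29.2, and 48.1 RPM (-3.53, adjusted P = 0.00556). Apol8, of the apolipoprotein L family, measured 4.37, 4.88, 1.81, and 3.02 RPM against 42.5, 15.4, 64.2, and 70.6 RPM (-3.297 ± 0.45, adjusted P = 0.00711). In these 3 genes and in Spata25 (1.91, 3.52, 2.29, and 2.15 against 18.3, 9.61, 21.4, and 31.8 RPM, -2.53) the lowest double mutant value was that of replicate 2 and the highest that of replicate 4. Apol7c, a relative of Apol8, measured 3.98, 4, 7.26, and 3.97 RPM against 20.997, 30.3, 34.8, and 32.3 RPM (-2.41, adjusted P = 0.00166). Defensin-related and Apol genes have close relatives, and their reads may be shared.

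Better known decreases concerned uptake, nucleases and proteases. Serpinb10, annotated as a polymorphic pseudogene of a protease inhibitor, measured 88.4, 51.8, 39.2, and 37.9 RPM against 314, 238, 336, and 345 RPM (-2.55 ± 0.26, adjusted P = 0.00166). The scavenger receptor Cd36 measured 246, 144, 170.4, and 148 RPM against 341, 295, 476, and 572 RPM (-1.23, adjusted P = 0.0356). Clec7a, the receptor for fungal β-glucan, measured 211, 151, 190.4, and 170.2 RPM against 443, 351, 301, and 324 RPM (-0.96, adjusted P = 0.0171). Dnase1l3, a secreted DNase, fell from 82.9, 74.8, 127, and 156 RPM to 25.7, 39.7, 43.9, and 40.1 RPM (-1.499, adjusted P = 0.0211), while the lysosomal exonuclease Pld3 did not pass (17.8, 27.04, 32.1, and 34.4 against 10.01, 15.6, 14.99, and 7.27 RPM, adjusted P = 0.0961). Naip5, a sensor of flagellin, had a small decrease with narrow groups, 219, 209.8, 197, and 255 RPM against 348, 335, 413, and 338 RPM (-0.702, adjusted P = 0.0265). The chemokine Ccl5 (22.6, 21.5, 38.6, and 18.2 against 66.5, 51.9, 81.4, and 102 RPM, -1.56, adjusted P = 0.0206) was the 1 call among 11 chemokines and among 35 NF-kB targets. Among all genes tested 0.632% were called lower. P2ry6, a receptor for UDP, measured 53.99, 37.8, 41.5, and 36.9 RPM against 117, 73.2, 106, and 145 RPM (-1.33, adjusted P = 0.0167). The growth factor receptor Kit (2.07, 2.80, 3.94, and 3.65 against 13.1, 12.7, 12.3, and 7.51 RPM, -1.59) and the decoy receptor Il1r2 (at most 0.320 RPM in Slc29a3-/- against 1.70, 2.22, 2.21, and 2.48 RPM, -1.47) fell as well. Il1r2 passed the filter through the double mutant libraries alone, which favors such a call. Without Slc29a3-/- replicate 2 the calls of Cd36, Clec7a, Dnase1l3, Naip5, Ccl5, P2ry6, Kit, and Il1r2 were lost, and without replicate 4 as well. Slc29a3-/- replicate 3 did so for these genes other than Ccl5 and Kit, replicate 1 for Dnase1l3, Naip5, and Ccl5, and double mutant replicate 3 for Cd36, Dnase1l3, Naip5, Ccl5, P2ry6, and Kit (adjusted P over all alternatives 0.0795 to 0.174 at most).

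Most pathways near TLR7 gave no call. Counts at the unadjusted threshold stand here beside 8.21% higher and 2.71% lower among all genes. None of 24 genes of endosomal TLRs and their signaling passed in either direction. At an unadjusted P under 0.05 and the same fold change 1 of them was higher and none lower. Tlr8 measured 234, 155, 299, and 304 RPM and 197, 245, 161, and 105 RPM (adjusted P = 0.353), Tlr9 82.8, 70.96, 72.96, and 81.03 RPM and 138, 95.2, 104, and 92.4 RPM (0.218), Unc93b1 938, 885, 1214, and 1179 RPM and 1063, 1088, 773, and 436 RPM (0.420), and Myd88 267, 159, 245, and 237 RPM and 232, 144, 204, and 173 RPM (0.464). None of 56 interferon-stimulated genes passed, with 4 higher and 4 lower at the unadjusted threshold, and Irf7 measured 207, 199.6, 196, and 229.8 RPM and 229, 210.5, 188, and 344 RPM (adjusted P = 0.572). None of 77 lysosomal genes passed (8 higher and 1 lower unadjusted), none of 25 genes of cholesterol synthesis (0 and 1), none of 62 nuclear genes of respiration (5 and 0) and none of 27 pro-apoptotic genes (4 and 0). Immediate early genes gave 1 higher and none lower unadjusted among 25, and replicate 4 of the double mutant alone had high values of them: Fos measured 46.5, 75.8, 17.99, and 401 RPM and Nr4a1 2338, 2777, 2074, and 5820.1 RPM in double mutant replicates 1 to 4. The signaling adaptor genes Tyrobp and Hcst overlapped and did not pass, with Tyrobp at 1824, 1844, 1777, and 1589.9 RPM and 1785, 1473, 1567, and 1323 RPM (adjusted P = 0.397) and Hcst at 72.2, 60.96, 80.8, and 72.8 RPM and 63.96, 62.7, 56.9, and 46.6 RPM (0.306).

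**Figure D4:**
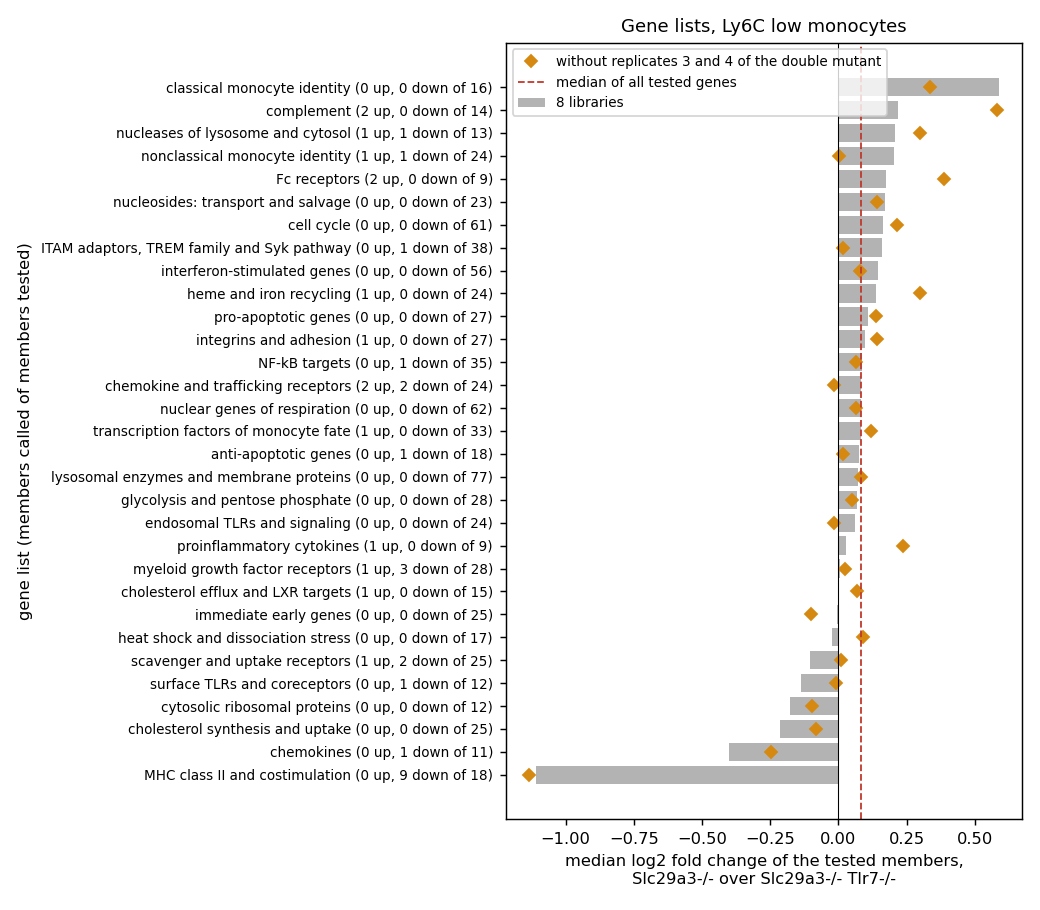
Median log2 fold change, Slc29a3-/- over Slc29a3-/- Tlr7-/-, of the tested members of 31 gene lists, with all 8 libraries (bars) and without replicates 3 and 4 of the double mutant (diamonds). Numbers in brackets are members called, and the dashed line marks the median of all genes tested, 0.08. The class II list lies lowest, at -1.11 and -1.13.

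Cell cycle genes gave no call among 61 tested, with 11 higher and 1 lower at the unadjusted threshold, beside 8.21% and 2.71% of all genes. Their median log2 fold change was 0.16 against 0.08 over all genes. In 11 of the 61 every Slc29a3-/- library exceeded every double mutant library, beside 7.87% of all genes. Mki67, the proliferation marker, measured 6.84, 8.80, 7.41, and 8.66 RPM and 2.83, 6.04, 3.16, and 2.24 RPM (1.03 ± 0.26, adjusted P = 0.119). Kif20a, a kinesin of cell division, measured 4.53, 4.64, 9.46, and 9.53 RPM and 2.50, 2.46, 2.52, and 2.24 RPM (1.16 ± 0.27, adjusted P = 0.088). Top2a (9.22, 10.8, 13.8, and 14.6 against 3.96, 17.6, 13.97, and 13.02 RPM) and Cdk1 (6.36, 9.44, 8.04, and 8.98 against 3.63, 8.26, 5.13, and 8.31 RPM) overlapped. In Ly6C hi monocytes of the same genotypes Mki67 measured 212, 189.6, 299, and 304 RPM and 86.7, 43.3, 44.3, and 78.3 RPM.

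To see where the dependence on Tlr7 differs from that of the immature subset, the same contrast was set against the 4 Slc29a3-/- and 4 Slc29a3-/- Tlr7-/- libraries of Ly6C hi monocytes by an interaction in 1 model of 16 libraries. Of 10703 genes tested the effect was more positive in Ly6C low cells for 260, or 2.43%, and more negative for 365, or 3.41%. This split depends on scaling: the median difference of all genes was 0.20 with library totals, and under TMM and RLE scaling the counts were 170 and 514, and 165 and 534. Of the 76 genes higher in Ly6C low cells 55 had a more positive effect there than in Ly6C hi cells and none a more negative one. Of the 63 lower genes 9 had a more negative effect and none a more positive one. Both sets were chosen for their effect in Ly6C low cells, so that these counts describe them and test nothing. Of the 76 genes 44 also passed the filter in the Ly6C hi libraries, and of the 63 genes 57 did. On the log2(RPM + 1) scale a gene near 0 RPM in Ly6C hi cells has an effect near 0 there. For such genes low expression and a lack of dependence on Tlr7 cannot be told apart. Among 67 cell cycle genes 33 had a more negative effect in Ly6C low cells and none a more positive one, with Cdk1 at -1.31 ± 0.36 (adjusted P = 0.0385) and the kinesin Kif2c at -2.66 ± 0.61 (adjusted P = 0.015). The call of Cdk1 was lost without 11 of the 16 libraries in turn, the exceptions being Slc29a3-/- replicates 1 and 2 and double mutant replicate 4 of Ly6C hi and double mutant replicates 1 and 3 of Ly6C low (adjusted P up to 0.0963). The 9 class II genes had no called difference between the subsets, and Cd74 measured 3391, 3626, 2527, and 2267 RPM in Slc29a3-/- and 7162, 6053, 4720.4, and 6169 RPM in double mutant Ly6C hi libraries.

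The largest called differences between the subsets among genes with a mean of at least 10 RPM over the 16 libraries were these. Cd5l (3.28 ± 0.85, adjusted P = 0.0296), Cd200r1 (3.15 ± 0.51, 0.003), Slc4a1 (3.07 ± 0.49, 0.003), C1qb (2.92 ± 0.53, 0.0054) and the adhesion molecule Cadm1 (2.87 ± 0.500, 0.00436) had more positive effects in Ly6C low cells. The difference of Cd5l lost its call without Slc29a3-/- replicate 3 or 4 or double mutant replicate 1 or 3 of Ly6C hi, or Slc29a3-/- replicate 2, 3, or 4 of Ly6C low (adjusted P over all alternatives up to 0.225). C1qb measured 11.1, 6.64, 5.87, and 5.88 RPM in Slc29a3-/- and 26.7, 11.9, 18.1, and 25.9 RPM in double mutant Ly6C hi libraries, the order opposite to that in Ly6C low cells. Slc4a1 was at most 1.75 RPM in Ly6C hi libraries, and its difference lost its call at a pseudocount of 0.1 RPM (adjusted P = 0.258). More negative effects in Ly6C low cells were found for the gelatinase Mmp9 (-4.58 ± 0.74, adjusted P = 0.003), Il1r2 (-3.18 ± 0.46, 0.00239), the glucose transporter Slc2a3 (-3.09 ± 0.46, 0.00285) and the fatty acid receptor Ffar2 (-2.97 ± 0.38, 0.00164). Mmp9 fell in Ly6C low cells, from 5.82, 5.72, 5.29, and 6.87 RPM to 0.318, 0.320, 0.946, and 0.715 RPM (-2.15, adjusted P = 0.00206), and measured 15.9, 50.05, 26.6, and 56.4 RPM in Slc29a3-/- and 23.6, 3.17, 1.35, and 5.77 RPM in double mutant Ly6C hi libraries.

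**Figure D5:**
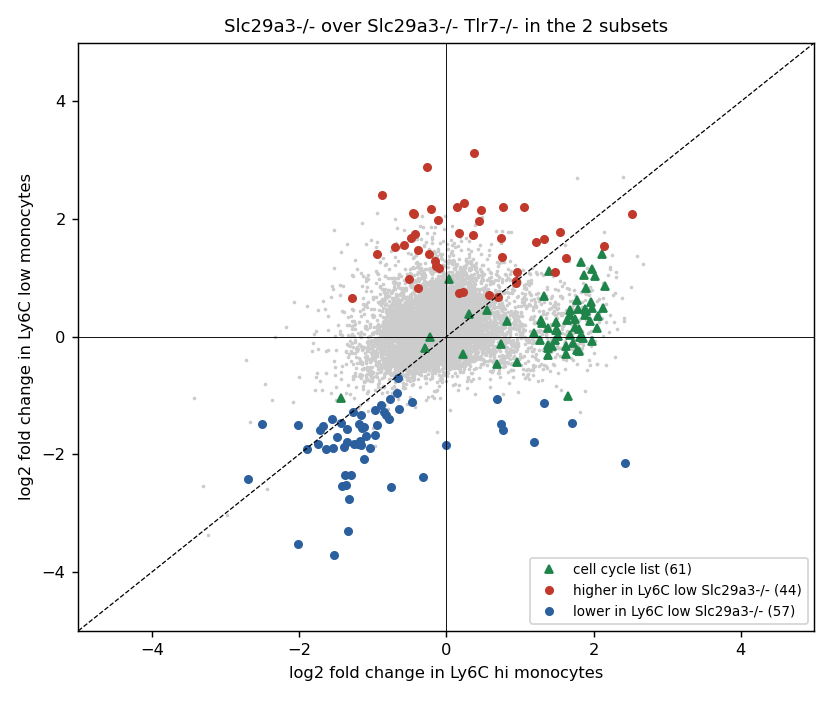
Each gray point is a gene tested in both subsets, with its log2 fold change (Slc29a3-/- over Slc29a3-/- Tlr7-/-) in Ly6C hi (x axis) and Ly6C low monocytes (y axis), and the dashed line marks equal effects. Of the 44 genes called higher in Ly6C low cells and tested in both 38 lie above the line, of the 57 called lower 51 lie below it, and of 61 cell cycle genes 56 lie below it.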

How the data were processed

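Total RNA of sorted splenic monocytes was amplified with the Ion AmpliSeq mouse transcriptome panel and sequenced on an Ion Proton. The authors deposited 1 table of RPM values (reads per library total) for 23930 amplicons, in which 0.0001 stands for 0. The study names alignment to mm10 with the AmpliSeqRNA plug-in of Torrent Suite and also STAR and HTSeq, and which step wrote the table is not stated. All RPM values were whole multiples of 1 read within 0.001 RPM, which gave 12382478 to 12678345 reads per library. Gene names turned into dates were repaired for 27 amplicons, and 21790 names matched the mm10 annotation GENCODE vM21, the source of all gene positions. Promoters came from RefSeq.

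From these values, log2(RPM + 1) was fitted with limma 3.58.1 (R 4.3.3), with a trend in the prior variance, to the 8 Ly6C low libraries. Genes with at least 1 RPM in 4 or more libraries entered. The difference between subsets was the interaction of genotype and subset over 16 libraries. Scripts were tested on simulated data. The text names the 2 targeted genes, the 10 largest increases and 10 largest decreases with a mean of at least 10 RPM and no overlap, the 5 members of each list with the smallest P, and the 5 largest interactions each way, of which a subset is described. Genes and gene lists were chosen with earlier results of these data known. Names outside the rule, including Trim10, Sptb, Dmtn, Add2, Rhd, Cd200r3, Cd200r4 and Siglece, were added after their values were seen. Alternatives were TMM and RLE scaling, no filter or a stricter one (mean of 10 RPM or more), 0.1 as the pseudocount, no trend, a block on replicate number, the unadjusted thresholds of the study, a fit with WT libraries, and each library left out. Leaving out replicates 3 and 4 of the double mutant, array weights, and a Y-linked covariate were added after seeing the data. WT libraries served in that 1 alternative alone. Some genes are not reported here.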

Additional observations from a re-analysis of the deposited data

Results flagged for a closer look

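Among 182 groups of 4 libraries of the named genes, 12 had 1 library far from the other three by Dixon's test, which chance gives in about 1 in 20 groups. In the double mutant these were replicate 3 for Alas2 (3.95 RPM), Siglece (108 RPM), Hebp1 (16.6 RPM), and Naip5 (413 RPM), replicate 2 for Pecam1 (631 RPM), replicate 4 for Kit (7.51 RPM), and replicate 1 for Kif2c (17.3 RPM). In Slc29a3-/- they were replicate 4 for Ccr3 (3.10 RPM), replicate 3 for H2-Ob (18.3 RPM) and Apol7c (7.26 RPM), replicate 2 for Csf1r (2248 RPM), and replicate 1 for Fcer1g (4421 RPM).

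The effect of Tlr7 differed between Ly6C low and Ly6C hi monocytes, by the interaction in limma, for 31 of the named genes. Differences of log2 fold changes were positive for the red-cell genes Slc4a1 (3.07), Alas2 (3.14), and Trim10 (3.17). Among receptors and adhesion molecules they were 2.76 for Cd72, 3.15 for Cd200r1, 3.199 for Cd200r3, 2.52 for Cd200r4, 1.62 for Fcrl5, 1.52 for Siglece, 1.44 for Fpr1, 1.69 for F11r, 2.35 for Lifr, 1.28 for Pecam1, 2.15 for C3ar1, 2.87 for Cadm1, and 1.57 for Tlr8. Secreted and macrophage genes gave 2.54 for Cp, 3.28 for Cd5l, 2.06 for Hebp1, 2.04 for Il10, 1.35 for Acp5, 1.43 for Nr1h3, and 2.92 for C1qb. Negative differences were those of Serpinb10 (-1.799), Kit (-2.36), Ffar2 (-2.97), Il1r2 (-3.18), Mmp9 (-4.58), Cdk1 (-1.31), Slc2a3 (-3.09), and Kif2c (-2.66). Of the 31 calls 21 held under each alternative in which the gene was tested. Those of Slc4a1 and Alas2 were lost at a pseudocount of 0.1 RPM (adjusted P = 0.258 and 0.0989). At the same pseudocount that of Fcrl5 turned to -0.30 (adjusted P = 0.797). Those of Cd72, Fpr1, Cp, Cd5l, Il10, Nr1h3, and Cdk1 were also lost under some alternatives.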

How the results depend on the processing

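The counts of higher and lower genes, 76 and 63, were 68 and 68 under TMM and 69 and 66 under RLE scaling. They were 24 and 29 among genes with a mean of at least 10 RPM, where fewer genes were tested, 818 and 270 at the unadjusted thresholds of the study, 126 and 73 in a fit with WT libraries, 137 and 56 without replicates 3 and 4 of the double mutant, and 38 and 51 with the Y-linked level as a covariate. Without replicates 3 and 4, 62 of the 76 and 42 of the 63 genes were called again. Leaving out 1 library at a time gave 13 to 118 higher and 19 to 65 lower genes. The labels pair no libraries, and deviations of same-numbered libraries correlated at 0.13, -0.19, -0.12, and 0.02 for replicates 1 to 4. With so few libraries these values cannot decide whether same-numbered libraries belong together. A fit with a replicate block called 48 higher and 37 lower genes. The interaction, with 625 genes of which 260 were more positive and 365 more negative in Ly6C low cells, gave 170 and 514 under TMM, 165 and 534 under RLE, 397 (156 and 241) with no filter, 409 (145 and 264) at a mean of at least 10 RPM, 388 (176 and 212) at a pseudocount of 0.1, and 2184 (1345 and 839) at the study thresholds. Without single libraries it ranged from 325 to 741, with 101 to 363 more positive and 205 to 432 more negative. Libraries that moved the total by over 1.5 times were replicates 3 and 4 of Ly6C hi Slc29a3-/-, replicate 3 of the Ly6C hi double mutant and replicates 2, 3 and 4 of Ly6C low Slc29a3-/-. Apart from lowered sample numbers and gene numbers, the cause of these shifts was not tested.

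Of 91 named genes 85 kept direction and call under TMM, 86 under RLE, 74 with no filter, 85 at a pseudocount of 0.1, 77 with the replicate block, 82 in the fit with WT libraries, and 72 with the Y-linked covariate. Directions turned for genes that were not called. Without replicates 3 and 4 of the double mutant the log2 fold changes were 0.018 for Csf1r, 0.16 for Fcer1g, -0.030 for Cx3cr1, 0.016 for Mcl1, and -0.043 for Unc93b1. With the Y-linked covariate they were -0.12 for Slc29a3, -0.087 for Top2a, and -0.51 for Hmox1. Hmox1 was at -0.050 under TMM and -0.043 under RLE scaling. Leaving out 1 library gave -0.39 to 0.58 for Hmox1, -0.29 to 0.35 for Top2a, and -0.196 to 0.0076 for Fcer1g. The interaction of Fcrl5, which was called, was -0.30 at a pseudocount of 0.1. The planned fits with edgeR and DESeq2 were not run, although the RPM are whole multiples of the value of 1 read. At a depth where 3 reads make 0.237 to 0.242 RPM, differences among genes under 1 RPM were not tested.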

Other observations

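Further genes, mostly outside the lists, also differed in Ly6C low cells, and those named here were picked after their values were seen. Of them Hes1 and Cd55 belong to lists. Nrarp and Dtx1, both known as targets of Notch, were lower in Slc29a3-/- than in double mutant libraries. Nrarp measured 37.8, 39.6, 30.5, and 22.4 RPM against 73.4, 74.3, 84.8, and 155 RPM (log2 fold change -1.503 ± 0.27, adjusted P = 0.0236), and Dtx1 0.318, 0.560, 0.473, and 0.397 RPM against 1.94, 2.46, 3.31, and 2.72 RPM (-1.32 ± 0.22, adjusted P = 0.0194). Dtx1 passed the filter through the double mutant libraries alone, which favors such a call. Hes1, another target, measured 132, 125, 98.8, and 88.6 RPM and 153, 151, 157, and 390.2 RPM and did not pass (adjusted P = 0.241), its highest value being that of double mutant replicate 4. Flt1, a receptor of vascular endothelial growth factor, measured 14.8, 9.28, 7.33, and 8.50 RPM against 38.4, 66.5, 38.1, and 18.3 RPM (-1.82, adjusted P = 0.0363), and Alox5, which starts leukotriene synthesis, 33.6, 26.4, 23.5, and 20.97 RPM against 53.8, 46.8, 54.9, and 78.5 RPM (-1.13, adjusted P = 0.0257). The scaffold protein gene Ahnak measured 299.9, 271, 203, and 186 RPM against 665, 633, 801, and 655 RPM (-1.54, adjusted P = 0.00247).

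Among increases, Lox, which crosslinks collagen, measured 1.99, 8.48, 4.73, and 9.14 RPM and was at 0 in all 4 double mutant libraries, at least 25.1-fold higher against 3 reads per library (adjusted P = 0.00874). Lox passed the filter through the Slc29a3-/- libraries alone, so that its P-value adds no separate support. Wfdc17, a secreted protein of activated macrophages, measured 183, 194, 254, and 225 RPM against 60.004, 59.1, 59.7, and 87.1 RPM (1.68 ± 0.17, adjusted P = 0.00166). Cd55, which restrains complement at the cell surface, measured 1.27, 7.36, 5.29, and 9.29 RPM against 0, 0.318, 0, and 0.719 RPM (2.27, adjusted P = 0.0373), a call that was lost under several alternatives (adjusted P up to 0.140). Cd55 also passed the filter through the Slc29a3-/- libraries alone. With C3ar1 it made up the 2 calls among 14 complement genes tested, beside 0.763% higher among all genes. Without replicates 3 and 4 of the double mutant 4 complement genes were called higher.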
